A study of Mus musculus with 3 samples.

Results

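The oxidative stress response of mouse skin was examined through 10 genes. Hmox1, Nqo1, Txnrd1, Srxn1, Gclm, Gclc, Slc7a11 and Prdx1 are known targets of the transcription factor NRF2, and Mt1 and Mt2 encode metallothioneins. The genes were chosen by symbol, with earlier results of these data known, and all 10 were found among the 32285 genes of each count matrix. The study asks how inflammation after ultraviolet B light (UVB), and the prostaglandin synthase Cox-2, act on melanocyte stem cells of the skin, and the comparison here asks how these 10 genes differ between its 3 single-cell libraries.

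All libraries came from dorsal skin of 8-week-old male C57Bl/6 mice in telogen, the resting phase of the hair cycle, and immune cells were enriched with CD45+ magnetic beads before 3′ single-cell RNA sequencing. WT_Ctrl was wild-type skin without UVB, WT_UV was wild-type skin exposed to UVB 3 times, and RP_UV was skin exposed in the same way from RP mice, which carry Rosa26-rtTA and Tre-Ptgs2 and were collected, like WT_UV, on day 5. In RP mice doxycycline, begun 1 day before UVB, turns on a transgene of Ptgs2, the gene for Cox-2, wherever the Rosa26 promoter drives rtTA, and no cell type is targeted. Whether the wild-type mice also received doxycycline is not given in the sources used here. Each group was 1 library from 1 animal. No difference therefore had a replicate check, and no test, standard error or p-value is given. Intervals cover counting error only.

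NRF2, the product of Nfe2l2, is held back by KEAP1, which marks it for degradation until oxidants or electrophiles modify KEAP1. NRF2 then enters the nucleus, pairs with small MAF proteins and binds antioxidant response elements (ARE) near genes for heme breakdown, thioredoxin, glutathione and quinone metabolism. BACH1 competes for the same elements and is best known for holding Hmox1 down. Metallothioneins are small cysteine-rich proteins that bind zinc and copper and react with oxidants, and zinc induces their genes through the factor MTF1 and metal response elements (MRE). In skin, NRF2 is known for protecting keratinocytes from ultraviolet light, and macrophages are known for clearing heme through the product of Hmox1.

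The libraries held 34985549 UMIs (unique molecular identifiers, each standing for 1 captured transcript) in WT_Ctrl, 82722013 in WT_UV and 37689836 in RP_UV. After filtering, 5309, 5225 and 6070 cells were left in that order, with a median of 4246, 10557 and 3774 UMIs. WT_Ctrl and RP_UV shared a flow cell and WT_UV was sequenced on another one. Sequencing run and group cannot be told apart in any comparison with WT_UV, and RP_UV over WT_Ctrl, which shared a run, differs in both UVB and genotype. Ptgs2, the overexpressed gene, was at 14.4, 118 and 486 CPM over all cells. A pair of libraries shared 8 to 11 cell barcodes. Cells were named from marker genes that did not include the 10 genes, and every cell name below stands for macrophage-like, keratinocyte-like cells and so on. Macrophages (1961, 2382 and 2319 cells in WT_Ctrl, WT_UV and RP_UV), keratinocytes (999, 497 and 1078) and fibroblasts (208, 6 and 206) were the main classes. Unnamed cells made up 16.7% to 19% of a library. Although CD45+ cells were enriched, non-immune cells were present in all libraries, and their kind differed: the fibroblast collagen Col1a1 was at 1750, 12.4 and 290 CPM over all cells, and S100a8 of neutrophils at 11.9, 53.9 and 638 CPM.

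For each gene, raw UMIs were summed over the cells of a class in a library and expressed as CPM, counts per 1000000 UMIs of that class. A gene was called higher or lower when the ratio of CPM was at least 2 or at most 0.5 and the 95% interval of the ratio did not include 1. It counted as measured with at least 20 UMIs over both libraries and a mean of at least 5 CPM. The words rose and fell are used for called genes alone. The 6 fibroblasts of WT_UV were too few for a comparison.

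In macrophages, the members of the heme, thioredoxin and metallothionein groups were highest in RP_UV. In WT_UV over WT_Ctrl 2 of 9 measured members rose (Slc7a11 and Mt2), while 3.49% of all measured genes did. In RP_UV over WT_UV 1 member rose (Mt2), against 1.36% of all measured genes. In RP_UV over WT_Ctrl 6 members rose (Hmox1, Txnrd1, Srxn1, Slc7a11, Mt1 and Mt2), against 4.63%. No member fell in any of the 3 comparisons. In a further setting all libraries, and not only WT_Ctrl and RP_UV, were limited to cells with fewer than 4000 genes. There 4 members rose in RP_UV over WT_UV (Hmox1, Srxn1, Prdx1 and Mt2). Of all measured genes 7.23% were called in either direction in that comparison and setting, against 5.06% with the reported processing. The comparisons share libraries and are not independent of each other.

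Hmox1 (ENSMUSG00000005413, chr8:75093618-75100593 on GRCm38) encodes heme oxygenase 1, which breaks heme down to biliverdin, iron and carbon monoxide. In macrophages it was counted at 328 CPM in WT_Ctrl (95% Poisson interval 315 to 341). WT_UV had 427 CPM (420 to 435) and RP_UV had 753 CPM (737 to 768). The 3 intervals were apart and RP_UV was the highest. The ratio was 1.3 for WT_UV over WT_Ctrl (1.25 to 1.36) and 1.76 for RP_UV over WT_UV (1.71 to 1.81), both short of the limit, and 2.30 for RP_UV over WT_Ctrl (2.2 to 2.4), where Hmox1 rose. After each cell had been thinned to 2000 UMIs, 43.2% of macrophages in WT_Ctrl held a Hmox1 UMI (95% Wilson interval 40.9% to 45.6%). The share was 45% in WT_UV (43% to 47.1%) and 64.8% in RP_UV (62.8% to 66.9%). Before thinning the shares were 61.6%, 79.4% and 80.6%. Thinning left out 291, 98 and 228 shallower cells. T cells, a class that should hold little Hmox1, gave 0.851% of 235 cells (0.234% to 3.05%), 2.73% of 587 (1.68% to 4.38%) and 7.14% of 14 (1.27% to 31.5%) after the same thinning. Before thinning a macrophage held a median of 3847, 10940 and 4645 UMIs, and a T cell 2411, 5809 and 1733.

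**Figure D1:**
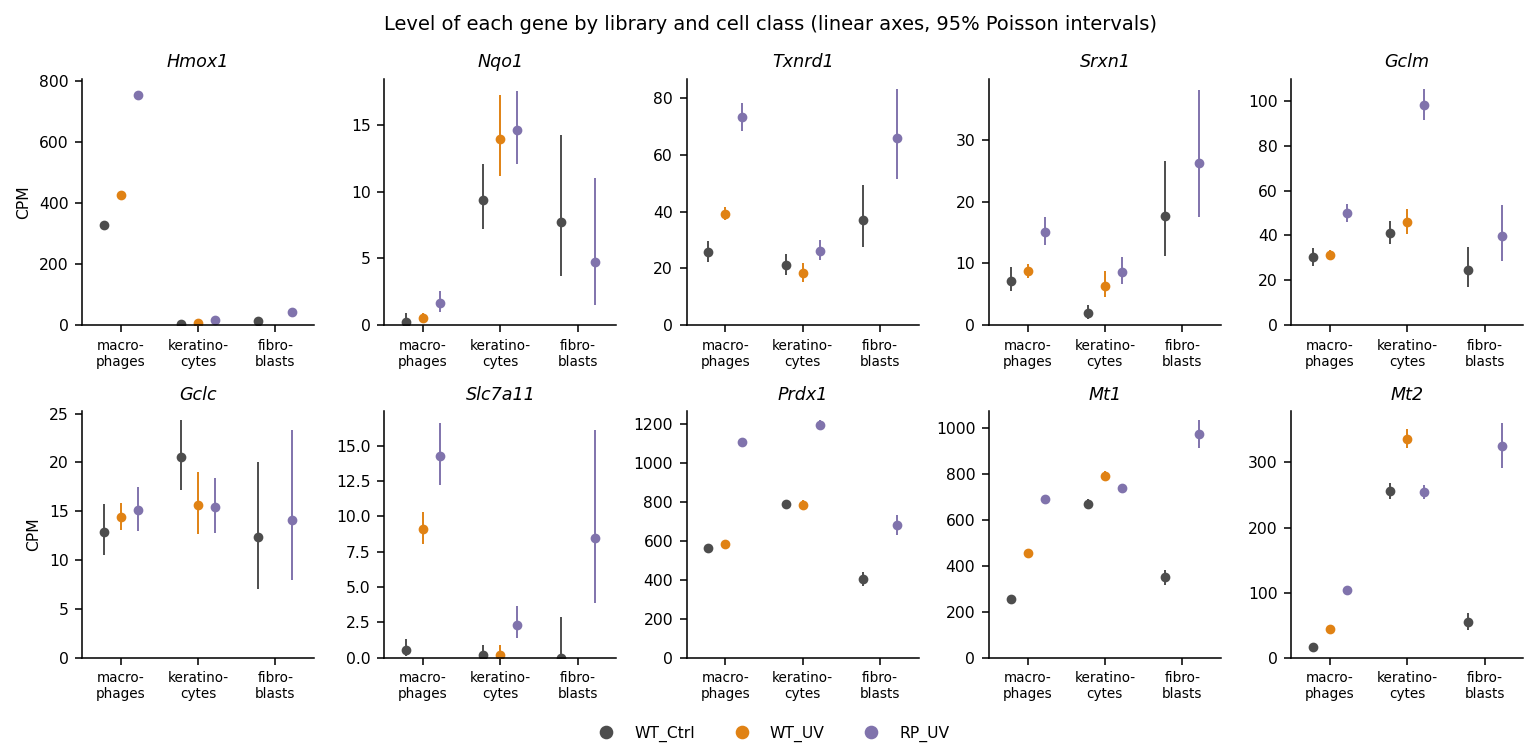
Level of each of the 10 genes in macrophages, keratinocytes and fibroblasts of WT_Ctrl, WT_UV and RP_UV, in CPM on a linear axis of its own for each gene, with 95% Poisson intervals of the count as bars. Hmox1 in macrophages stepped from 328 to 427 and 753 CPM, while Mt1 in keratinocytes stayed between 672 and 791 CPM, and the 6 fibroblasts of WT_UV are not drawn.

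The thioredoxin branch came next in order. Txnrd1 (ENSMUSG00000020250, chr10:82833951-82897724), cytosolic thioredoxin reductase, keeps thioredoxin reduced. It was at 25.7 CPM in macrophages of WT_Ctrl (22.3 to 29.5), 39.1 CPM in WT_UV (36.9 to 41.5) and 73.3 CPM in RP_UV (68.5 to 78.3). The intervals did not overlap, and the rise in RP_UV over WT_Ctrl was 2.85-fold (2.44 to 3.34). Prdx1 (ENSMUSG00000028691, chr4:116685599-116700000), a peroxiredoxin that reduces hydrogen peroxide, behaved differently in the first step. It was at 565 CPM in WT_Ctrl (549 to 582), 584 CPM in WT_UV (575 to 593) and 1108 CPM in RP_UV (1089 to 1127). Both wild-type libraries were alike within counting error, with a ratio of 1.03 (0.999 to 1.07), and RP_UV stood at 1.96 times the level of WT_Ctrl (1.89 to 2.03), just short of a call. Srxn1 (ENSMUSG00000032802, chr2:152105524-152111376), sulfiredoxin, returns overoxidized peroxiredoxins to their active form. Few UMIs of it were counted in macrophages, at 7.23 CPM in WT_Ctrl (5.46 to 9.39), 8.70 CPM in WT_UV (7.65 to 9.85) and 15.1 CPM in RP_UV (13.0 to 17.5). The wild-type intervals overlapped, and Srxn1 rose 2.09-fold (1.54 to 2.87) in RP_UV over WT_Ctrl. That call, close to the limit, was lost when cells were thinned to equal depth and when they were classed one by one from their own marker UMIs.

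The glutathione genes were uneven. Gclc and Gclm encode the catalytic and the modifier subunit of glutamate-cysteine ligase, the rate-limiting enzyme of glutathione synthesis, and Slc7a11 encodes the cystine transporter xCT that supplies its cysteine. Gclc (ENSMUSG00000032350, chr9:77754535-77794489) was at 12.9 CPM in macrophages of WT_Ctrl (10.5 to 15.7), at 14.4 CPM in those of WT_UV (13.1 to 15.9) and at 15.1 CPM in those of RP_UV (13.0 to 17.5). All 3 intervals overlapped, and the ratio of RP_UV over WT_Ctrl was 1.17 (0.913 to 1.51). Gclm (ENSMUSG00000028124, chr3:122245487-122267215) was at 30.2 CPM (26.5 to 34.3), 31.3 CPM (29.2 to 33.4) and 50.1 CPM (46.2 to 54.2) in the same order. It was thus level in the wild-type libraries and 1.66 times as high in RP_UV as in WT_Ctrl (1.42 to 1.94), which was not called.

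Slc7a11 (ENSMUSG00000027737, chr3:50364936-50499087) gave the largest ratios among the members, from few UMIs. Macrophages held 4 UMIs in WT_Ctrl, 260 in WT_UV and 173 in RP_UV, which are 0.516 CPM (0.141 to 1.32), 9.12 CPM (8.05 to 10.3) and 14.3 CPM (12.2 to 16.6). It rose 17.7-fold in WT_UV over WT_Ctrl (6.82 to 65.3) and 27.7-fold in RP_UV over WT_Ctrl (10.6 to 103). Neutrophils had far more of it, at 2677 CPM (46 UMIs in 10 cells), 1708 and 1336 CPM, and they were 10, 59 and 574 cells of the 3 libraries. The 10 neutrophil markers summed to 127, 113 and 202 CPM within macrophages, with S100a9, Cxcr2 and Acod1 at 0 in WT_Ctrl, Retnlg and Ly6g at 0 in WT_UV and none at 0 in RP_UV. If all of these had come from neutrophil RNA, it would carry 54.4% of the macrophage level of Slc7a11 in WT_UV and 39.7% in RP_UV. In WT_Ctrl the same sum gave 1110% of the counted level and is therefore an overestimate there. With cells classed one by one, Slc7a11 was not called in macrophages in either comparison.

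**Figure D2:**
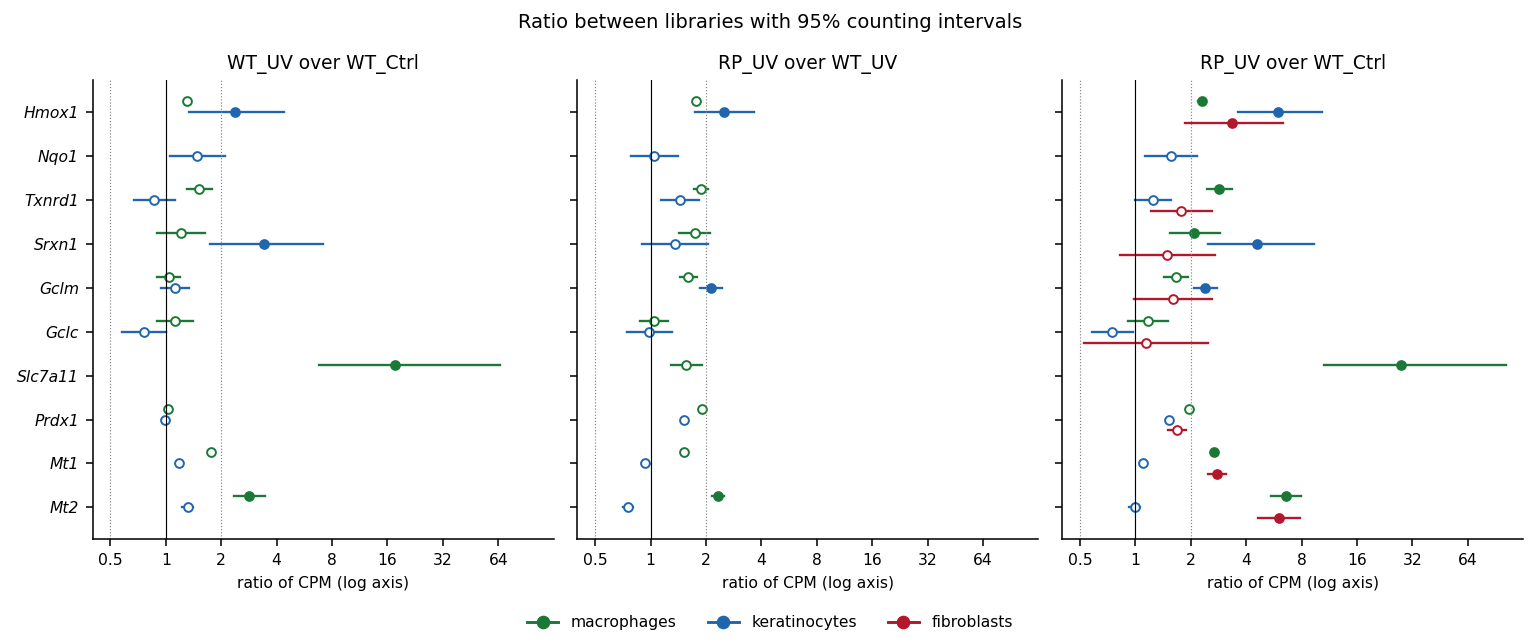
Ratio of CPM between libraries on a log axis with 95% counting intervals as bars, for each member measured in macrophages, keratinocytes or fibroblasts, 1 panel per comparison, with called ratios as filled points and dotted lines at 0.5 and 2. In macrophages Slc7a11 lies farthest to the right, at 17.7 in WT_UV over WT_Ctrl and 27.7 in RP_UV over WT_Ctrl, and Mt2 is next, at 2.84 and 6.58.

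Nqo1 (ENSMUSG00000003849, chr8:107388225-107403205), a quinone reductase often used as a readout of NRF2, was nearly absent from macrophages. It had 2, 15 and 20 UMIs in WT_Ctrl, WT_UV and RP_UV, or 0.258, 0.526 and 1.65 CPM, and did not reach the minimum for a comparison.

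Mt1 and Mt2 (ENSMUSG00000031765 and ENSMUSG00000031762) lie side by side, at chr8:94178883-94180327 and chr8:94172618-94173567, with 5315 bases between them. In macrophages Mt1 was at 257 CPM in WT_Ctrl (246 to 269), 455 CPM in WT_UV (447 to 463) and 692 CPM in RP_UV (677 to 707). Mt2 was at 15.8 CPM (13.1 to 18.8), 44.7 CPM (42.2 to 47.2) and 104 CPM (97.9 to 109). No intervals overlapped for either gene and the order was WT_Ctrl, WT_UV, RP_UV for both. Mt2 rose in each comparison, by 2.84-fold in WT_UV over WT_Ctrl (2.35 to 3.44), 2.32-fold in RP_UV over WT_UV (2.14 to 2.51) and 6.58-fold in RP_UV over WT_Ctrl (5.46 to 7.99). Mt1 had smaller ratios of 1.77 (1.69 to 1.86), 1.52 (1.48 to 1.56) and 2.69 (2.56 to 2.83), of which only the last was called. The share of thinned macrophages with an Mt2 UMI was 2.22% (1.61% to 3.04%), 7.27% (6.27% to 8.41%) and 16.1% (14.6% to 17.8%), and before thinning it was 5.66%, 24.2% and 30.4%. In T cells it was 0.851% (0.234% to 3.05%), 1.02% (0.469% to 2.21%) and 0 of 14 cells, whose interval reaches 21.5%. For Mt1 the thinned shares were 37%, 46.2% and 66.1% in macrophages and 2.98%, 3.58% and 0 of 14 cells in T cells. Keratinocytes, a large class, held much metallothionein RNA. From the summed keratinocyte markers in macrophages, 286, 275 and 354 CPM with none of 13 at 0, keratinocyte RNA would carry at most 10.7%, 4% and 1.69% of the macrophage level of Mt2, and at most 1.72%, 0.923% and 0.737% of that of Mt1.

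Since both metallothioneins moved together in macrophages, the 250 bases before the start used by each promoter window are shown. They are from RefSeq on GRCm38.p6, both on the plus strand. For Mt1 that start lies inside the gene as placed above, so the stretch from 94178883 on is within the gene. For Mt2 the stretch ends just before the gene, which begins at 94172618. The stretches are therefore not alike in position. Capitals mark matches to the MRE letters TGCACNC or TGCGCNC on either strand.
Mt1, chr8:94178839-94179088: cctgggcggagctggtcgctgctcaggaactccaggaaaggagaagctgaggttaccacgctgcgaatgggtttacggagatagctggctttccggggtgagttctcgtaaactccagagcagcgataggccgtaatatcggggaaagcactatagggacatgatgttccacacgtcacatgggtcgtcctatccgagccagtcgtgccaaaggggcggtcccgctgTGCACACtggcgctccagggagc
Mt2, chr8:94172368-94172617: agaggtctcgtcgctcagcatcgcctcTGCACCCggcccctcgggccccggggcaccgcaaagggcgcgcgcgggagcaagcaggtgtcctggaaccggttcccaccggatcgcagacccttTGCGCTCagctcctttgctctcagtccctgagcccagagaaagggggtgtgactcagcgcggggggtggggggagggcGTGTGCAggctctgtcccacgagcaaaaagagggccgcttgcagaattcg
In the whole windows of 300 bases, 250 before and 50 after the start used, Mt2 held 4 such matches and Mt1 held 3. A match was found in 25.7% of all 32851 RefSeq windows of this length. A match is a description of the letters and not of a bound site.

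RefSeq windows matched 8 of the 10 members, in 10 windows, and Hmox1 and Gclc had no entry. The ARE letters TGACNNNGC were found in the windows of 5 members (Txnrd1, Srxn1, Gclm, Prdx1 and Mt2) on either strand, and in 12.4% of all windows. The stretches of 61 bases around the matches that lie before the start used by the window are shown to compare the letters. All are on the plus strand, with the match in capitals. For Txnrd1 the stretch lies inside the gene as placed above.
Txnrd1, chr10:82859088-82859148: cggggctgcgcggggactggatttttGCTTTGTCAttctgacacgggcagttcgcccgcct
Gclm, chr3:122245397-122245457: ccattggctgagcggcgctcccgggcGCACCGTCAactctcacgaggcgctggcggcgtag
Prdx1, chr4:116685440-116685500: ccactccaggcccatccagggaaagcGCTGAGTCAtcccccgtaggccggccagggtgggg
Mt2, chr8:94172513-94172573: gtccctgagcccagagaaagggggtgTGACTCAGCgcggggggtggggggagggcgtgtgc
The matches of Prdx1 and Mt2 overlap a match to the AP-1 letters TGACTCA, which stood in 5.2% of all windows, and that of Gclm overlaps an MRE match. The match of Srxn1 began 29 bases after its start and is not shown. Of the members with an ARE match, Txnrd1, Srxn1 and Mt2 were called in macrophages in RP_UV over WT_Ctrl and Gclm and Prdx1 were not, and Mt1 and Slc7a11, without a match, were called as well.

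Macrophages were then divided by the 4 large clusters of the class, named after a leading gene: Ccl8 (733, 728 and 659 cells in WT_Ctrl, WT_UV and RP_UV), Lyve1 (621, 509 and 736), Cd93 (345, 695 and 710) and Fn1 (251, 323 and 169). Hmox1 was at 310, 554 and 975 CPM in the Ccl8 cluster and at 518, 620 and 926 CPM in the Lyve1 cluster. It was at 244, 313 and 498 CPM in the Cd93 cluster and at 149, 120 and 191 CPM in the Fn1 cluster. RP_UV was the highest library in all 4, whereas WT_UV stood below WT_Ctrl in the Fn1 cluster, with a ratio of 0.808 (0.683 to 0.960). Mt2 was concentrated in the Ccl8 cluster, at 11.7, 66.0 and 135 CPM, and in the Lyve1 cluster, at 30.1, 72.5 and 167 CPM. In the Cd93 and Fn1 clusters it did not exceed 34.0 CPM. The ratio of RP_UV over WT_Ctrl for Mt2 was 11.5 (8.19 to 16.7) in the Ccl8 cluster and 5.57 (4.28 to 7.35) in the Lyve1 cluster. Within these clusters the libraries fell into different finer groups. The finer groups were made without integration of the libraries, so they can divide by library or run as well as by cell state. Which of these they follow was not tested. In the Ccl8 cluster 598 WT_Ctrl cells, 614 WT_UV cells and 605 RP_UV cells lay in different finer groups. Each group was made up mostly of a single library but held cells of the others, so these values compare different finer groups. In the Fn1 cluster Hmox1 was at 159, 187 and 237 CPM in the finer group led by Retnla and Lyz1. It was at 114, 122 and 61.6 CPM (4 UMIs in RP_UV) in that led by Chil3 and Plac8. The lower level of WT_UV than of WT_Ctrl was not seen in either. A further group led by Mmp12 held 2, 155 and 118 cells, with Hmox1 at 87.2 CPM in WT_UV and 192 CPM in RP_UV.

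For Txnrd1, Srxn1, Gclm and Prdx1 the ratio of RP_UV over WT_Ctrl was larger in the Fn1 cluster than in the other 3. Its other leading genes were Lyz1, Ear2 and Mmp12. Txnrd1 was at 30.5 CPM in WT_Ctrl, 63.2 in WT_UV and 176 in RP_UV, and Prdx1 was at 370, 371 and 1783 CPM. Slc7a11 was at 0.783 CPM in WT_Ctrl, which was 1 UMI, and at 34.0 and 140 CPM in WT_UV and RP_UV. Txnrd1 thus differed by 5.76-fold (4.05 to 8.37) and Prdx1 by 4.81-fold (4.35 to 5.34) in RP_UV over WT_Ctrl, each more than over all macrophages. Srxn1 and Gclm had ratios of 7.65 (2.94 to 25.3) and 3.5 (2.22 to 5.65) there. The finer groups of this cluster were filled unequally, so these ratios compare different finer groups. Neutrophil markers summed to 35.2, 62.2 and 1267 CPM in the Fn1 cluster, and neutrophil RNA could carry up to 35.7 CPM of Slc7a11 in RP_UV, beside the 140 CPM counted. A finer group led by Mmp12, Chil3 and Il1b held 2, 155 and 118 of these cells. It held 29 of the Srxn1 UMIs of RP_UV, at 37.8 CPM beside 5.63 CPM in WT_UV, while the finer group led by Retnla and Lyz1 was at 4.97, 15.4 and 5.92 CPM of Srxn1. Within the first Prdx1 was at 373 CPM in WT_UV and 2123 CPM in RP_UV (2021 to 2229), and Slc7a11 was at 61.4 and 166 CPM. The 2 WT_Ctrl cells there held 24 Prdx1 UMIs, or 1559 CPM (999 to 2319), an interval that overlaps that of RP_UV. In the second (187, 68 and 34 cells) Prdx1 was at 348, 351 and 735 CPM. In the third, led by Chil3 and Plac8 (62, 100 and 17 cells), Prdx1 was at 388, 387 and 493 CPM, and the intervals overlapped (337 to 696 in RP_UV). Compared with WT_UV, the higher Prdx1 of RP_UV was thus seen in 2 of the 3 finer groups. Compared with WT_Ctrl, it was seen without overlap in the second alone, and the first had 2 WT_Ctrl cells.

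**Figure D3:**
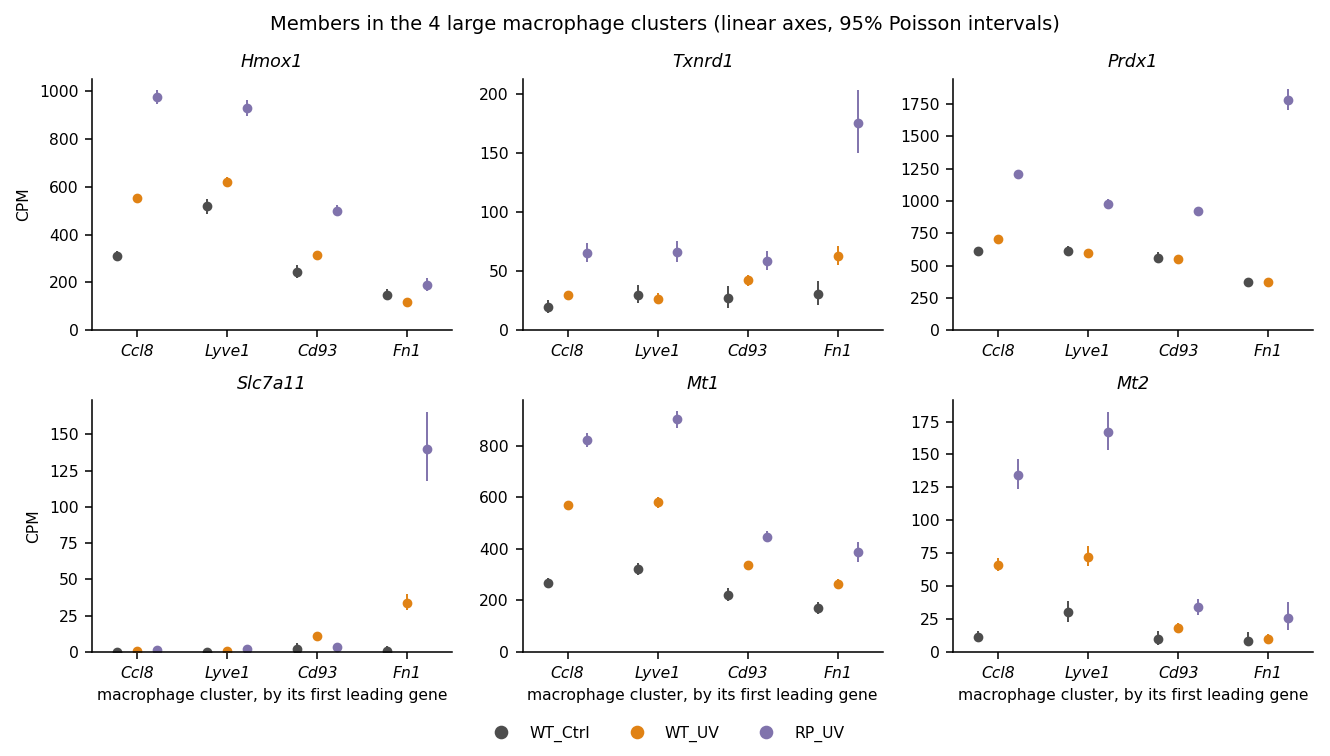
Members in the 4 large macrophage clusters, each named by its first leading gene, in CPM on linear axes, with 95% Poisson intervals as bars and 1 colour per library. Hmox1 reached 975 CPM in the Ccl8 cluster of RP_UV but 191 CPM in its Fn1 cluster, whereas Prdx1 was highest in the Fn1 cluster of RP_UV, at 1783 CPM.

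Genes that respond to cell dissociation were measured beside the members. In macrophages the 12 genes of that list summed to 3583 CPM in WT_Ctrl, 6235 in WT_UV and 6893 in RP_UV, none at 0, and 5 of 12 rose in WT_UV over WT_Ctrl and 4 of 12 in RP_UV over WT_Ctrl. Of all measured genes 3.49% and 4.63% rose in these comparisons. The 10 fibroblast markers in macrophages summed to 232, 103 and 83.2 CPM. The part of dissociation and of foreign RNA in the macrophage results was not tested beyond the limits given for Slc7a11, Mt1 and Mt2.

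In keratinocytes, the epithelial cells of the epidermis and hair follicle, Hmox1 was called in all 3 comparisons and Mt1 and Mt2 in none. In WT_UV over WT_Ctrl 2 of 9 measured members rose (Hmox1 and Srxn1), against 2.23% of all measured genes. In RP_UV over WT_UV 2 rose (Hmox1 and Gclm), against 5.41%, and in RP_UV over WT_Ctrl 3 rose (Hmox1, Srxn1 and Gclm), against 6.35%. No member fell.

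Hmox1 was low in keratinocytes, at 2.82 CPM in WT_Ctrl (18 UMIs, 1.67 to 4.46), 6.73 CPM in WT_UV (41 UMIs, 4.83 to 9.13) and 16.8 CPM in RP_UV (130 UMIs, 14.04 to 19.96). It rose 2.39-fold in WT_UV over WT_Ctrl (1.34 to 4.41), 2.5-fold in RP_UV over WT_UV (1.75 to 3.64) and 5.96-fold in RP_UV over WT_Ctrl (3.63 to 10.4). The first of these calls was lost under 4 of 12 alternatives and the second under 1 (the mean over cells of CPM per cell), whereas the last held under all 12. In thinned keratinocytes 0.58% (0.248% to 1.35%), 1.84% (0.895% to 3.75%) and 3.61% (2.54% to 5.1%) of cells held a Hmox1 UMI (1.7%, 7.44% and 8.72% before thinning). These shares lay at or below those of T cells, which for RP_UV rest on 1 of 14 cells, so no difference is read from the shares. The calls rest on CPM, and T cells were at 4.56, 11.1 and 13.5 CPM, the last from 1 UMI. The 13 macrophage markers summed to 80.9, 127 and 325 CPM in keratinocytes, with 0, 1 and 0 of them at 0. Macrophage RNA could at most have brought 0.961, 2.43 and 8.07 CPM of the Hmox1 counted in keratinocytes. Srxn1 was at 1.88 CPM (12 UMIs, 0.972 to 3.28), 6.40 CPM (39 UMIs, 4.55 to 8.75) and 8.66 CPM (67 UMIs, 6.71 to 11). Both UVB libraries lay above WT_Ctrl without overlap, at 3.41-fold (1.75 to 7.14) in WT_UV and 4.61-fold (2.47 to 9.36) in RP_UV, and overlapped each other. Both calls of Srxn1 were lost with thinned cells.

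Gclm was at 41.1 CPM in keratinocytes of WT_Ctrl (36.2 to 46.3), 46.0 CPM in WT_UV (40.7 to 51.7) and 98.1 CPM in RP_UV (91.3 to 105). The wild-type libraries overlapped and RP_UV stood apart, 2.14 times as high as WT_UV (1.86 to 2.46) and 2.39 times as high as WT_Ctrl (2.08 to 2.76). The call over WT_UV was lost under 3 of 12 alternatives (a mitochondrial share under 5%, thinned cells, and the mean over cells of CPM per cell), and the call over WT_Ctrl with thinned cells alone. Prdx1 showed the same order without a call, at 789 CPM (767 to 811), 785 CPM (763 to 808) and 1198 CPM (1174 to 1223). Nqo1, which keratinocytes did express, was at 9.40 CPM (7.17 to 12.1), 13.95 CPM (11.1 to 17.3) and 14.6 CPM (12.0 to 17.6). The ratio of 1.48 (1.05 to 2.10) for WT_UV over WT_Ctrl turned into a fall, with a log2 ratio of -1.51, when each library was clustered on its own, and Gclm, level in the main classes, fell as well under that setting, with a log2 ratio of -1.05. Txnrd1 lay between 18.2 and 26.3 CPM, Gclc between 15.4 and 20.5 CPM, and Slc7a11 had 1, 1 and 18 UMIs.

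Mt1 in keratinocytes was at 672 CPM in WT_Ctrl (652 to 692), 791 CPM in WT_UV (769 to 814) and 740 CPM in RP_UV (720 to 759). Mt2 was at 256 CPM (244 to 269), 337 CPM (322 to 352) and 254 CPM (243 to 266). WT_UV was the highest library for both, and for Mt2 WT_Ctrl and RP_UV were alike within counting error, with a ratio of 0.993 (0.929 to 1.06). In macrophages, in contrast, RP_UV had the highest level of both. That contrast between the classes was not tested. Keratinocyte clusters spread widely: in RP_UV Mt1 ranged from 322 CPM in the cluster led by Defb6 and Krt79 to 1174 CPM in the cycling cluster led by histone genes. The cycling cluster held 52, 32 and 168 cells. Hmox1 in the largest cluster, led by Krt1 and Krt10 (405, 233 and 257 cells), was at 1.62, 8.89 and 19.0 CPM. It was at 7.34, 6.41 and 34.2 CPM in the cluster led by Defb6 and Krt79 (204, 116 and 205 cells), and at 1.68, 6.66 and 6.84 CPM in the cluster led by Il1r2 (249, 97 and 217 cells), so the order of the libraries over the whole class was not seen in each cluster. Finer groups of the Krt1 cluster differed too: one held 274, 48 and 34 cells and another, led by Krt16, held 0, 33 and 121. The 12 dissociation genes summed to 6945, 4746 and 3015 CPM in keratinocytes, and 9 of 12 fell in RP_UV over WT_Ctrl, against 8.31% of all measured genes. Neutrophil markers summed to 3.13, 26.3 and 213 CPM in keratinocytes, and their part in the result was not tested.

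Fibroblasts, the collagen-making cells of the dermis, could be compared in RP_UV over WT_Ctrl alone. There 3 of 8 measured members rose (Hmox1, Mt1 and Mt2), against 8.26% of all measured genes, and none fell. Mt2 was at 54.1 CPM in WT_Ctrl (42.2 to 68.3) and 325 CPM in RP_UV (292 to 361), a rise of 6.01-fold (4.64 to 7.88). Mt1 was at 350 CPM (319 to 384) and 974 CPM (916 to 1035), a rise of 2.78-fold (2.49 to 3.11). Both calls held under all 12 alternatives, and both ratios were close to those in macrophages. Hmox1 was at 12.4 CPM (16 UMIs, 7.07 to 20.1) and 41.5 CPM (44 UMIs, 30.1 to 55.6), a rise of 3.35-fold (1.86 to 6.37) that was lost with thinned cells. From the 13 macrophage markers, which summed to 772 CPM in fibroblasts of WT_Ctrl and 1194 CPM in those of RP_UV with none at 0, macrophage RNA could have brought up to 9.18 CPM of that Hmox1 in WT_Ctrl and up to 29.7 CPM in RP_UV. For Mt1 the same limits were 7.20 and 27.3 CPM. Txnrd1 had a ratio of 1.78 (1.21 to 2.62) and Prdx1 of 1.69 (1.51 to 1.90), neither called, and the intervals of the ratios of Srxn1, Gclm and Gclc included 1. Slc7a11 had 0 UMIs in WT_Ctrl, which allows up to 2.32 CPM, and 9 UMIs in RP_UV.

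The 2 fibroblast sums were not alike in other ways. Their finer groups held 43, 101, 22, 39 and 3 cells in WT_Ctrl but 74, 12, 42, 21 and 57 in RP_UV, so the ratios compare different finer groups. The 10 fibroblast markers summed to 148689 CPM in WT_Ctrl and 48108 CPM in RP_UV, and 4 of the 10 fell (Col1a1, Col1a2, Col3a1 and Sparc), against 4% of all measured genes. Dissociation genes summed to 3777 and 7101 CPM, with 6 of 12 higher, against 8.26% of all measured genes. Keratinocyte markers summed to 318 and 519 CPM and neutrophil markers to 37.1 and 235 CPM, with 6 of the 10 neutrophil markers at 0 in WT_Ctrl and Acod1 and Ly6g at 0 in RP_UV. Their part in the fibroblast result was not tested.

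**Figure D4:**
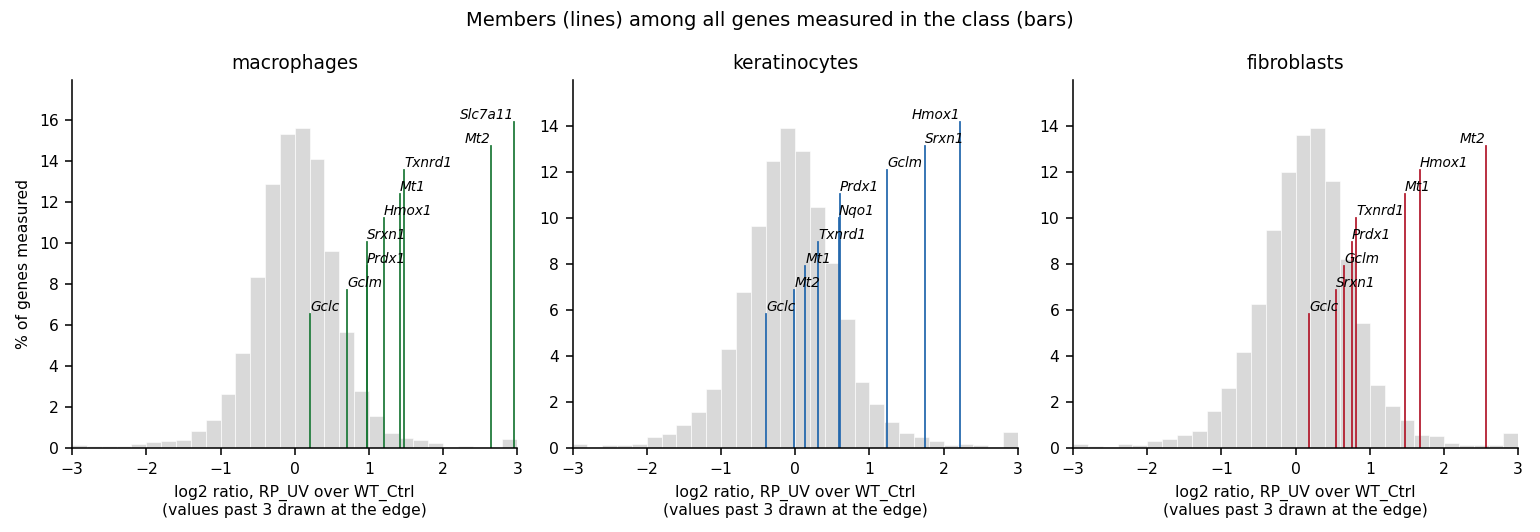
Share of all measured genes (bars, in % of genes) by log2 ratio of RP_UV over WT_Ctrl in each main class, with the measured members drawn as lines, whose height carries no value, and values past 3 drawn at the edge. In macrophages the median member lay at 1.2 and the median gene at 0.03, in keratinocytes at 0.59 and -0.06, and in fibroblasts at 0.78 and 0.16.

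The alternatives were not run for the other cell classes. In T cells (328, 601 and 39 cells) none of 7, 7 and 5 measured members was called in WT_UV over WT_Ctrl, RP_UV over WT_UV and RP_UV over WT_Ctrl. Of all measured genes 2.3%, 2.96% and 3.18% rose there and 1.53%, 1.17% and 1.82% fell. None of 6 was called in Schwann cells in RP_UV over WT_Ctrl (2.65% rose, 3.54% fell). None of 2 was called in NK cells in WT_UV over WT_Ctrl (2.49% rose, 2.89% fell). Dendritic cells, which present antigen, numbered 488, 546 and 156 cells. In WT_UV over WT_Ctrl 2 of 8 measured members rose in them (Txnrd1 and Slc7a11), against 3.64% of all measured genes, in RP_UV over WT_UV 2 rose (Gclm and Slc7a11), against 3.84%, and in RP_UV over WT_Ctrl 3 rose (Txnrd1, Gclm and Slc7a11), against 6.15%. Txnrd1 was at 36.1 CPM (29.7 to 43.5), 77.9 CPM (72.5 to 83.5) and 134 CPM (112 to 158). Slc7a11 was at 5.53 CPM (17 UMIs), 29.1 CPM (292 UMIs) and 71.8 CPM (71 UMIs). Both genes stepped up from library to library without overlap of their intervals. The finer groups of dendritic cells were filled unequally: one held 3, 211 and 29 cells and another 148, 77 and 15. These ratios therefore compare different finer groups. Neutrophil RNA would carry at most 7.18%, 7.68% and 13.3% of this Slc7a11. The metallothioneins were not called and differed from each other. Mt2 was at 65.0 CPM (56.3 to 74.7), 47.5 CPM (43.3 to 51.9) and 40.5 CPM (28.9 to 55.1), whereas Mt1 was higher in both UVB libraries than in WT_Ctrl.

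In neutrophils 1 of 7 measured members rose in RP_UV over WT_UV (Mt1, at 31.7 and 75.5 CPM), against 4.87% of measured genes. They had the highest level of Slc7a11 of any class in every library, at the values given above, and Txnrd1 was at 466, 450 and 386 CPM in them. In the 10 neutrophils of WT_Ctrl that was 8 UMIs, and the 3 intervals overlapped. Langerhans cells, the dendritic-like cells of the epidermis, numbered 69, 68 and 24. Mt1 was at 54.5 CPM (18 UMIs, 32.3 to 86.1), 320 CPM (300 UMIs, 285 to 358) and 436 CPM (43 UMIs, 315 to 587) there. It rose 5.87-fold in WT_UV (3.65 to 10.1), 1 of 5 measured members against 4.57% of measured genes, and 8.00-fold in RP_UV (4.52 to 14.7), where Txnrd1 rose too, 2 of 3 against 6.78%. Txnrd1 also rose in RP_UV over WT_UV, 1 of 5 against 3.91%. Of the Langerhans cells 3, 47 and 23 lay in a single finer group that held few of WT_Ctrl, so these ratios compare different finer groups. Keratinocyte RNA could have brought at most 9.72, 11.7 and 30.8 CPM of this Mt1.

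Mast cells numbered 29, 92 and 39, and pericytes or smooth muscle cells 52, 20 and 184. In mast cells Prdx1 and Mt1 rose in RP_UV over WT_Ctrl, 2 of 2 measured members against 13.1% of measured genes, with Mt1 at 342, 475 and 689 CPM, and Prdx1 rose in RP_UV over WT_UV, 1 of 2 against 4.52%. In pericytes or smooth muscle Mt1 fell in WT_UV over WT_Ctrl, 1 of 2 against 9.32%, and was at 446, 184 and 395 CPM. In RP_UV over WT_UV 3 of 6 rose there (Gclm, Mt1 and Mt2), against 5.35%, and in RP_UV over WT_Ctrl 1 of 7 (Gclm), against 4.13%. Gclm had 3, 0 and 41 UMIs, or 18.3, 0 and 72.0 CPM, and Mt2 had 6, 0 and 31 UMIs, or 36.7, 0 and 54.4 CPM. The 0 UMIs of WT_UV allow up to 29.05 CPM, which is more than 0.5 times the Mt2 level of RP_UV.

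In endothelial cells, which line vessels and numbered 44, 24 and 147, Mt1 was lower in both UVB libraries than in WT_Ctrl, and Mt2 was lower in WT_UV. Mt1 was at 508 CPM (399 to 637), 152 CPM (105 to 212) and 228 CPM (193 to 267), and Mt2 was at 144 CPM (21 UMIs, 89.1 to 220), 44.7 CPM (10 UMIs, 21.4 to 82.1) and 90.0 CPM (60 UMIs, 68.7 to 116), where WT_Ctrl and RP_UV overlapped. Both fell in WT_UV over WT_Ctrl, Mt1 to 0.299 times (0.193 to 0.455) and Mt2 to 0.310 times (0.130 to 0.688) the level, 2 of 5 measured members against 7.20% of measured genes, and Mt1 fell in RP_UV over WT_Ctrl, to 0.449 times (0.338 to 0.602), 1 of 7 against 6.16%. Among classes of at least 20 cells Nqo1 had its highest level here, at 20.6 CPM (3 UMIs), 40.2 CPM (9 UMIs) and 102 CPM (68 UMIs). It rose 4.96-fold in RP_UV over WT_Ctrl (1.63 to 24.6), 1 of 7 measured members against 5.09% of measured genes. Of the 7 measured in RP_UV over WT_UV 3 rose (Nqo1, Txnrd1 and Mt2), against 4.48%. The finer groups of these cells held 24, 8 and 12 cells in WT_Ctrl, 5, 17 and 2 in WT_UV and 21, 107 and 19 in RP_UV, the first with the lymphatic gene Ccl21a among its leading genes, so the ratios compare different finer groups. Further finer groups scored highest for endothelial markers but stayed unnamed, because markers of another panel led, and are not included. They held 35, 2 and 109 cells, and 27, 2 and 90 cells.

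**Figure D5:**
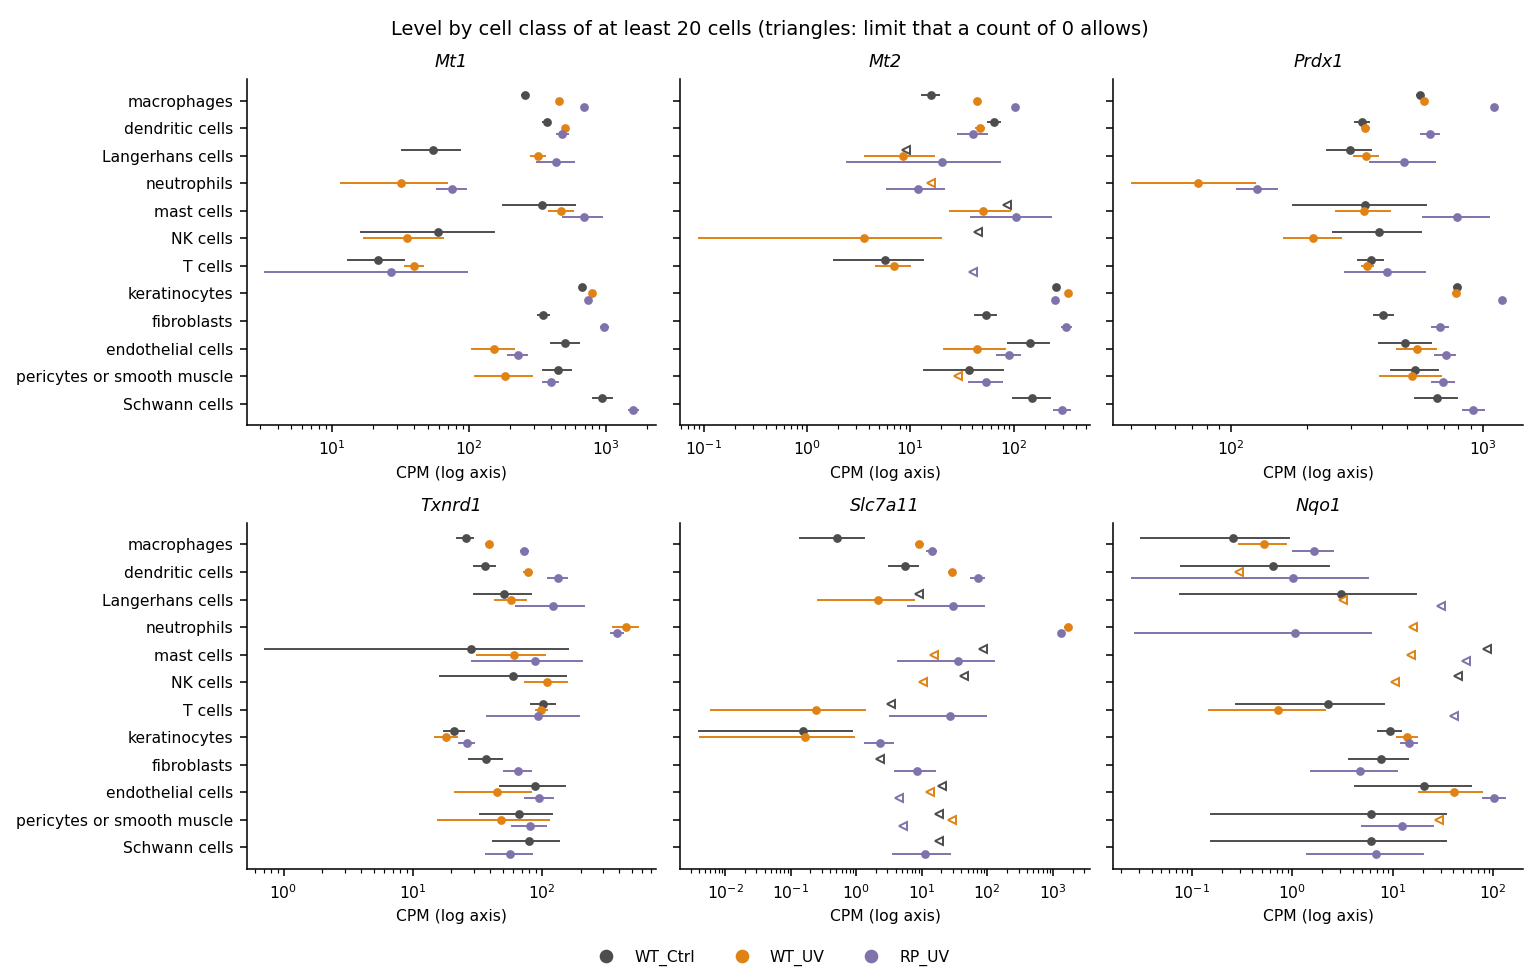
Level of Mt1, Mt2, Prdx1, Txnrd1, Slc7a11 and Nqo1 in each cell class of at least 20 cells, in CPM on a log axis, 1 point per library with 95% Poisson intervals and triangles for the limit that a count of 0 allows. Slc7a11 stood farthest to the right in neutrophils, at 1708 CPM in WT_UV and 1336 CPM in RP_UV, and Nqo1 in endothelial cells, at 102 CPM in RP_UV.

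The members differed in the class where they were highest. Hmox1 in WT_Ctrl ran from 328 CPM in macrophages down to 2.82 CPM in keratinocytes among classes of at least 100 cells, with dendritic cells at 21.5 CPM (16.6 to 27.3), fibroblasts at 12.4 CPM (7.07 to 20.1) and T cells at 4.56 CPM between them. Dendritic cells and fibroblasts overlapped in their intervals. Over 27 sums of 12 classes and 3 libraries, each of at least 30 cells, the genes whose log2 level was most like that of Hmox1 were Pf4 (Pearson r = 0.92), Ms4a7 (0.91) and C1qc (0.91), among 8992 genes. For Mt1 they were Mt2 (0.89), Tmbim1 (0.86) and Rnd3 (0.83). Among members Txnrd1 and Slc7a11 followed each other at 0.77, while Hmox1 and Mt1 were at 0.29. These sums share libraries and classes, so the values are a description.

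Of the wider set of NRF2 targets few were called in macrophages. Of 24 measured genes out of 28, none rose and 1 fell (Ephx1, an epoxide hydrolase) in RP_UV over WT_Ctrl, with a median log2 ratio of 0.06, beside 1.2 for the members and 0.03 for all 9139 measured genes. Of all measured genes 4.63% rose and 4.86% fell, so 1 fall among 24 is near that share. Those with the highest counts were Fth1 and Ftl1, the heavy and light chain of ferritin, Gpx1, a glutathione peroxidase, and Blvrb, a biliverdin reductase. Fth1 was at 7254, 5848 and 9736 CPM and Ftl1 at 5284, 5545 and 9070 CPM, Gpx1 at 846, 639 and 684 CPM and Blvrb at 554, 442 and 773 CPM. All but Gpx1 were highest in RP_UV, below the 2-fold limit. In keratinocytes 6 of 27 wider targets rose in RP_UV over WT_Ctrl (Pgd, Tkt, Txn1, Gpx2, Gsta4 and Mgst1), against 6.35% of all measured genes, with a median of 0.45 beside -0.06 for all genes. Mgst1, a microsomal glutathione transferase, was at 242, 100 and 779 CPM, and Txn1, thioredoxin itself, at 310, 375 and 683 CPM. In fibroblasts 3 of 24 rose (Tkt, Cat and Ugdh), against 8.26%, with a median of 0.47 beside 0.16.

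None of the 6 measured regulators was called in macrophages or keratinocytes in any comparison. In macrophages Nfe2l2, the gene of NRF2 itself, was at 114, 217 and 155 CPM, Bach1 at 123, 198 and 141 CPM and Keap1 at 57.8, 40.0 and 48.4 CPM. WT_UV was thus highest for the first pair. In fibroblasts 1 of the 6 rose (Mafk, a small MAF) in RP_UV over WT_Ctrl, against 8.26% of all measured genes. Among the metal handling genes measured in macrophages, the zinc importers Slc39a14 (8.26, 16.5 and 18.9 CPM) and Slc39a8 (2.58, 5.79 and 7.19 CPM) rose in RP_UV over WT_Ctrl, 2 of 4, against 4.63% of all measured genes. Of these, Slc39a8 alone also rose in WT_UV over WT_Ctrl, by 2.24-fold (1.405 to 3.77), against 3.49% of all measured genes. In keratinocytes Mt4, the metallothionein of stratified epithelium, fell to 111 CPM in RP_UV from 547 CPM in WT_Ctrl and 759 CPM in WT_UV, and it was the only one of 4 called. None of the 6 glucocorticoid-induced genes, measured because glucocorticoids also raise metallothioneins, was called in macrophages. In keratinocytes Klf9 of that list fell in each comparison and Fkbp5 rose in RP_UV over WT_Ctrl. Of all measured genes in keratinocytes 2.02% fell in WT_UV over WT_Ctrl, 4.32% in RP_UV over WT_UV and 8.31% in RP_UV over WT_Ctrl. In the last comparison 6.35% rose.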

How the data were processed

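Dorsal skin cells enriched with CD45+ magnetic beads were profiled by 10x 3′ single-cell RNA sequencing, with 1 library from 1 animal in each of 3 groups. The authors aligned reads to mm10 (GRCm38) with Cell Ranger, version 6.1.1 per the file headers, and deposited whole UMI counts per gene and cell barcode, without normalization.

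From these counts, cells with a mitochondrial share below 10%, more than 200 genes and fewer than 4000 genes (6000 in WT_UV), the limits of the study, were kept. They were integrated and clustered in R 4.3.3 with Seurat 5.3.0 and sctransform 0.4.2 (3000 features, 30 dimensions, resolution 0.8), the 10 members being left out of the genes used. Clusters of at least 100 cells were split further (resolution 0.5) on log-normalized counts of all libraries together, without integration. A sub-cluster, or finer group, was named where 1 marker panel of 19 led clearly. That named 78 of 110 sub-clusters, and the others stayed unnamed. Scrublet marked under 0.5% of cells in 2 libraries and was not used to remove doublets. Sub-clusters deep in UMIs with markers of a second type were left unnamed.

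UMIs were summed per class and library in Python 3.11.15 and given as CPM with exact Poisson intervals. Ratios had exact conditional binomial intervals, shares of cells Wilson intervals, all at 95%, and log2 ratios a pseudocount of 1 CPM. A count of 0 allowed up to 3 counts. The ratios were checked on simulated counts. Intervals cover counting error only, and their width follows the library totals of 34985549, 82722013 and 37689836 UMIs. The RNA that another class could have brought was set from the summed markers of that class and is an upper limit, since the markers were taken to have no other source. Reads of the rat Ptgs2 transgene may be counted in part as mouse Ptgs2.

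All 10 members were named, and from each further list at most the 4 genes with the highest mean CPM in a class. The other called genes of those lists that are named (Ephx1, Pgd, Tkt, Gpx2, Gsta4, Cat, Ugdh, Mafk and Fkbp5) were chosen after their values were seen. Members and lists were chosen with earlier results of these data known. RefSeq windows on GRCm38.p6 gave the sequences. The alternatives covered scaling, filters, thinning, cell naming and doublets.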

Additional observations from a re-analysis of the deposited data

Results flagged for a closer look

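Ratios of the metallothioneins pointed in opposite directions in different cell classes of the same comparison, and none of these differences was tested, since each group was 1 library. In WT_UV over WT_Ctrl the ratio of Mt1 was 5.87 in Langerhans cells, 0.299 in endothelial cells and 0.413 in pericytes or smooth muscle. In the same comparison the ratio of Mt2 was 2.84 in macrophages and 0.31 in endothelial cells. In RP_UV over WT_Ctrl the ratio of Mt1 was 8.00 in Langerhans cells, 2.78 in fibroblasts, 2.69 in macrophages, 2.01 in mast cells and 0.449 in endothelial cells. The endothelial values rest on 44, 24 and 147 cells, and keratinocyte markers summed to 267, 2916 and 872 CPM in them in WT_Ctrl, WT_UV and RP_UV. Their part in the result was not tested.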

How the results depend on the processing

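Counts of called members in macrophages, keratinocytes and fibroblasts were recomputed under up to 13 alternatives. This gave 87 values, of which 76 stayed within 1.5 times the reported count and 11 moved. The log2 ratios of single members gave 709 values, of which 566 stayed within the 95% counting interval of the reported ratio and 143 did not, and no called ratio changed its sign. In macrophages, the count of members that rose in WT_UV over WT_Ctrl was 4 instead of 2 with each library clustered on its own. Of all measured genes 11.9% were then called in either direction, against 4.69% with the reported processing. In RP_UV over WT_UV the count of members was 4 instead of 1 with fewer than 4000 genes per cell in every library, 2 without a minimum of UMIs or CPM, and 0 with cells classed one by one. The shares of all genes called under these settings were 7.23%, 4.77% and 5.29%, against 5.06% with the reported processing. In keratinocytes, the count in WT_UV over WT_Ctrl was 1 instead of 2 with cells classed one by one or mixed clusters named by their best panel, and 0 with thinned cells. In RP_UV over WT_UV it was 1 instead of 2 with a mitochondrial share under 5% or with thinned cells, and 0 with the mean of per-cell CPM. In RP_UV over WT_Ctrl it was 1 instead of 3 with thinned cells. Of all measured genes in keratinocytes 6.11%, 4.76% and 8.9% were called under these settings in WT_UV over WT_Ctrl, against 4.25% as reported. In RP_UV over WT_UV the shares were 10.2%, 11.3% and 11.7%, against 9.74%, and in RP_UV over WT_Ctrl 14.8%, against 14.7%. The cause of the moved counts was not tested, except that the alternative without a minimum admits more genes by its construction.

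In macrophages the calls of Hmox1, Txnrd1, Mt1 and Mt2 in RP_UV over WT_Ctrl were kept under all 13 alternatives. Slc7a11, not called in macrophages in RP_UV over WT_UV at a log2 ratio of 0.60, had -0.71 with libraries clustered on their own and -0.41 with cells classed one by one. With libraries clustered on their own, Nqo1 and Gclm, not called in keratinocytes in WT_UV over WT_Ctrl, had called log2 ratios of -1.51 and -1.05. Leaving out clusters 14 and 22 of the macrophages was chosen after seeing the data. No paired analysis was possible because each group was 1 library, and for the same reason no replicate could be left out. Depth limits Nqo1 and Slc7a11, which had 2 and 4 UMIs in macrophages of WT_Ctrl.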

Other observations

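The cells without a class, 1011, 872 and 1035 in WT_Ctrl, WT_UV and RP_UV, held Hmox1 at 31.5, 58.7 and 166 CPM, Slc7a11 at 1.46, 21.96 and 83.6 CPM and Mt2 at 163, 53.1 and 64.7 CPM. In this mixture Mt2 was highest in WT_Ctrl, whereas in macrophages and fibroblasts it was highest in RP_UV. Over all kept cells together Mt2 was at 116, 71.1 and 142 CPM and Mt1 at 412, 442 and 642 CPM. The level of Mt2 over all cells in WT_UV was thus below that of WT_Ctrl, although it was higher in WT_UV both in macrophages (44.7 over 15.8 CPM) and in keratinocytes (337 over 256 CPM). Keratinocytes were 497 of the kept cells in WT_UV and 999 in WT_Ctrl, and the part of this in the result was not tested.

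Over 4 large macrophage clusters Slc7a11 was not ordered alike. In WT_Ctrl, WT_UV and RP_UV the Cd93 cluster held 2.2, 10.8 and 3.27 CPM of it, with a ratio of 0.304 (0.151 to 0.559) for RP_UV over WT_UV, while in the Fn1 cluster that ratio was 4.12 (3.24 to 5.24). The difference between the clusters was not tested.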
